A study of Saccharomyces cerevisiae with 11 samples.

Results

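The enzymes of the respiratory chain and the ATP synthase do not assemble unaided, and 38 yeast genes for the factors that put them together are described here. The genes were chosen by systematic name as known assembly factors: 24 for cytochrome oxidase (complex IV), 4 for complex III, 7 for the ATP synthase and 3 for succinate dehydrogenase. All 38 were found among the 5756 genes listed in any library, and all 38 had counts in every library. Ribosome-protected fragments (footprints, the stretches of mRNA covered by a ribosome) and poly(A)-enriched mRNA had been sequenced from Saccharomyces cerevisiae whose genomic rDNA was depleted and whose rRNA came from a plasmid alone. In the wild-type group (WT) the plasmid held the normal rRNA sequence. In the ΔES7S group the plasmid rRNA lacked ES7S, an expansion segment of the 18S rRNA in the small ribosomal subunit. Both groups grew in YPD, a rich glucose medium, and both carried the rDNA depletion, so that neither is a strain with chromosomal rRNA genes. The parent is yJD1045 in the series description and yJD1046 in the source fields of the samples, which are alike for both groups. Footprints were available from 3 WT and 3 ΔES7S libraries and mRNA from 2 WT libraries (replicates 2 and 3) and 3 ΔES7S libraries. The labels do not say whether replicates came from separate cultures or clones, so the p-values measure the spread between these samples, which may be technical.

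As background, complexes III and IV and the ATP synthase have central subunits encoded in mitochondrial DNA. These are made by mitochondrial ribosomes at the inner membrane. The other subunits, all those of succinate dehydrogenase and all the assembly factors come from nuclear genes and cytosolic ribosomes. Assembly factors insert new subunits into the membrane, deliver copper, heme A or iron-sulfur clusters, and hold partly built modules until their partners arrive. Several of them also sense how far assembly has gone and adjust the translation of a mitochondrial mRNA to it. In glucose medium yeast ferments and keeps respiration partly repressed.

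Library totals ran from 5712239 to 57968667 counts, and the 38 genes took 0.290% to 0.307% of footprint counts in all 6 footprint libraries. Their share of mRNA counts was 0.265% and 0.233% for WT but only 0.132% to 0.169% for ΔES7S. The lowest count of any of these genes in any library was 78. The deletion lies in rRNA, which was not analysed here, so the strain labels were taken as given. Levels are given as CPM, counts scaled to library size, after TMM, a normalisation that sets the bulk of genes equal between libraries, separately for footprints and for mRNA. Each difference is therefore measured against the bulk of genes, and levels of different genes are not compared because they are not divided by gene length. Fold changes are ΔES7S over WT from edgeR's quasi-likelihood test, with a standard error (SE), and a gene is called changed where the Benjamini-Hochberg adjusted p over all genes tested is under 0.05.

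By fold change, mRNA was lower in ΔES7S for 35 of the 38 assembly factors, footprints were on balance level, and footprints relative to mRNA were higher for 37, though fewer passed the test. The median log2 fold change of the 38 genes was -0.62 in mRNA, 0.01 in footprints and 0.65 in footprints relative to mRNA, against -0.01, 0.00 and -0.01 over all genes tested. The mRNA test called 9 of the 38 lower and 0 higher and left 29 uncalled. The footprint test called 5 higher and 3 lower and left 30 uncalled. Footprints relative to mRNA (translation efficiency, tested as the interaction of assay and strain over all 11 libraries) rose for 17, fell for 0 and did not pass for 21. This test uses the same mRNA libraries, so it is not independent of the mRNA result. Of the 17, 7 were called in footprints, higher for PET117, FMC1, SCO2 and CBP6 and lower for OXA1, COX23 and COX17. The change in footprints relative to mRNA was largest for PET117 (YER058W), whose mRNA fell 3.90-fold while its footprints rose 1.34-fold.

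**Figure D1:**
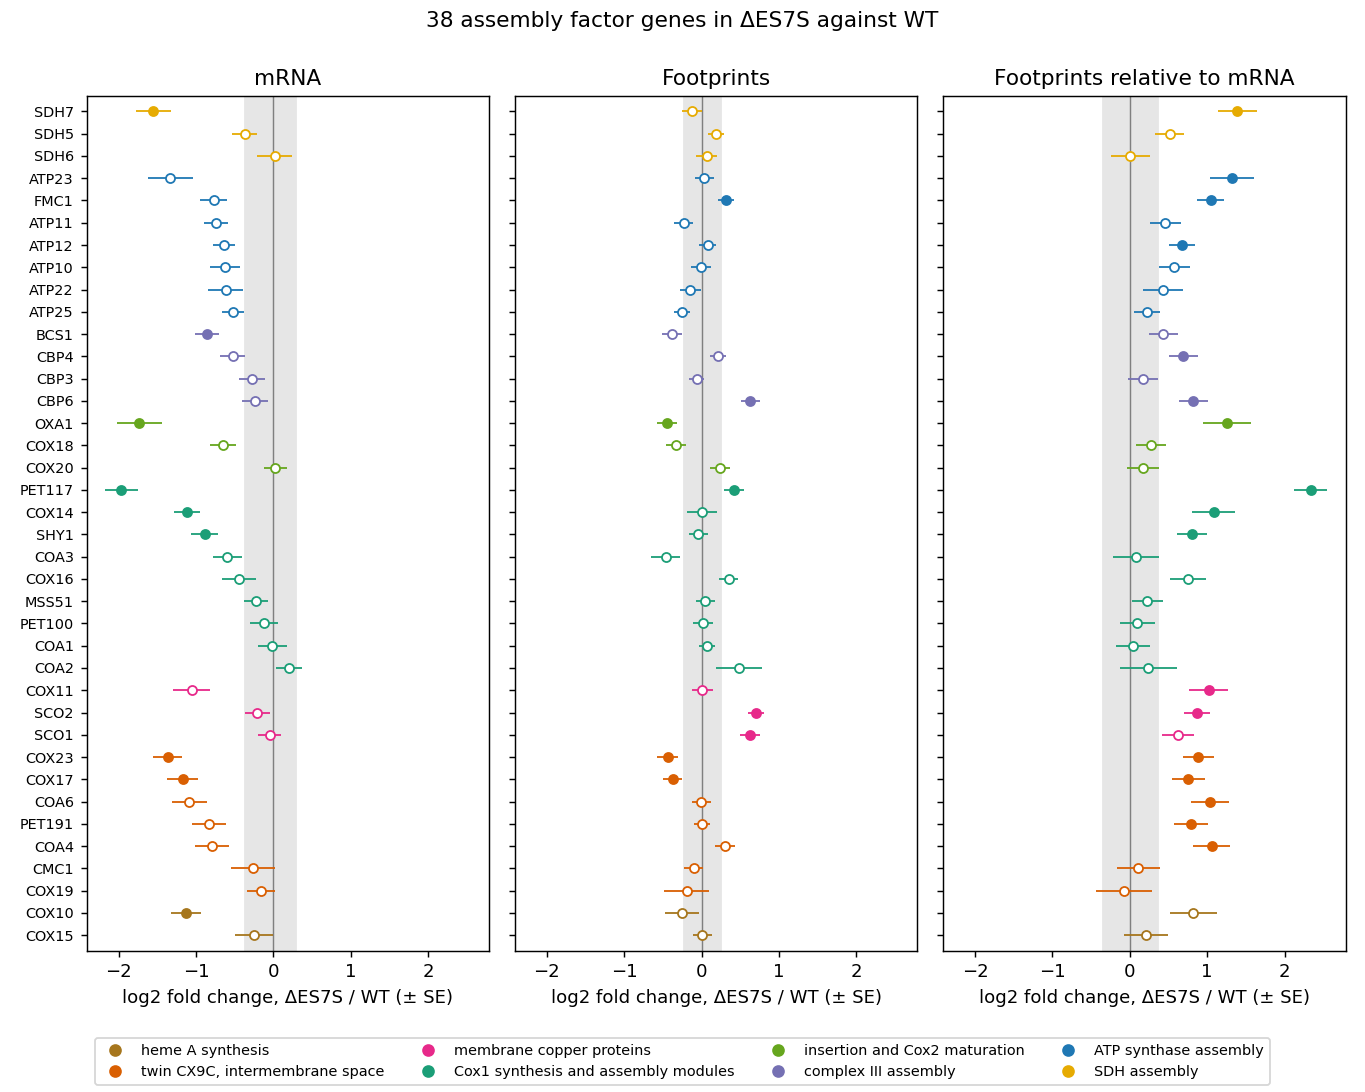
Log2 fold change (ΔES7S over WT, ± SE) of each of the 38 genes in mRNA, in footprints and in footprints relative to mRNA, on 1 common scale. Filled points passed an adjusted p of 0.05, open points did not, colours mark the role of the gene and grey bands span the 25th to 75th percentile of all genes tested. In mRNA 35 points lie left of 0, in footprints 17, and in footprints relative to mRNA 1.

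These counts can be set against all genes, though the list was chosen with earlier results of these data known. The share of all genes called lower in mRNA was 1.57% (88 of 5611) and called higher 1.19%, against 23.7% and 0% of the assembly factors. In footprints 12.6% of all genes were called lower and 14.2% higher, near the 7.89% and 13.2% of the assembly factors, so the footprint counts are close to the background. In footprints relative to mRNA 4.63% of 5588 genes were called higher and 4.33% lower, against 44.7% and 0% of the assembly factors. Every ΔES7S mRNA library lay below every WT mRNA library for 31 of the 38 genes, against 28.5% of all genes, and 0 of the 38 lay above, against 26.3%. In footprints 8 genes lay wholly below and 9 wholly above WT, against 21.2% and 21.5% of all genes. The median deviation of the 38 genes from the WT mean was -0.62, -0.74 and -0.49 (log2) in the 3 ΔES7S mRNA libraries and -0.02, 0.07 and 0.03 in the 3 ΔES7S footprint libraries. At an unadjusted p under 0.05, 23 of the 38 genes were lower and 0 higher in mRNA, against 915 and 812 of 5611 genes. The mRNA libraries were enriched on oligo-dT beads, so a shorter poly(A) tail and fewer molecules cannot be told apart. Footprints relative to mRNA share this limit, because the same mRNA libraries enter them.

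The mRNA calls, here and over all genes, rest on few libraries. Dropping WT replicate 2 or 3 left a single WT library, and the median of the 38 genes was then -0.54 and -0.68. Dropping replicate 2 or 3 of ΔES7S left 0 of the 38 called by edgeR. At an unadjusted p under 0.05, 22 and 24 were lower. In those fits 0 of all genes were called in either direction. Dropping ΔES7S replicate 1 gave 23 calls, all lower, against 1364 lower and 1103 higher of 5597 genes. With all libraries DESeq2 called 20 and limma-voom 16, and in each of these fits 32 to 37 of the 38 had a fold change below 0. For footprints relative to mRNA the count of 17 fell to 4 and 3 without WT footprint replicate 2 and 3. It fell to 4 without ΔES7S footprint replicate 2. Over all genes 61, 33 and 42 were then called higher. Without 1 of the other footprint libraries or of the ΔES7S mRNA libraries it was 12 to 21, against 110 to 971 over all genes. Without WT mRNA replicate 2 or 3 a single WT mRNA library was left, and the median was 0.59 and 0.68. Over all 11 omissions the median ran from 0.59 to 0.75. With upper-quartile scaling the median of all genes in footprints relative to mRNA moved from -0.01 to 0.10. Calls over all genes then went from 259 higher and 242 lower to 278 and 139, and 17 assembly factors were again called higher.

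**Figure D2:**
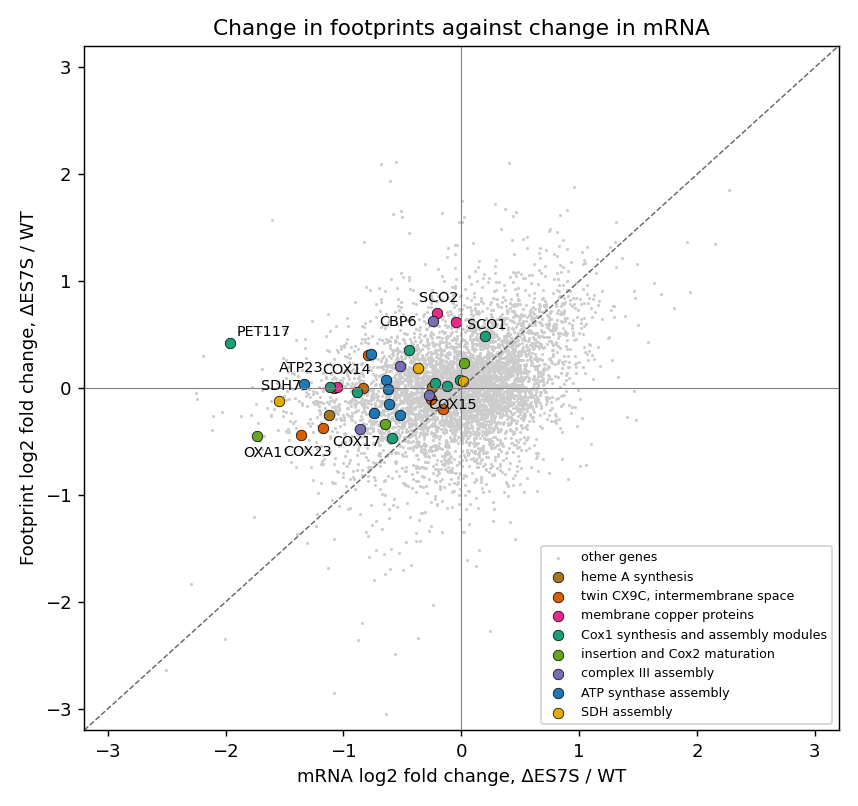
Footprint log2 fold change (vertical) against mRNA log2 fold change (horizontal), ΔES7S over WT, for all genes tested in both (grey) and the 38 assembly factors (coloured by role). On the dashed diagonal both change alike; the assembly factors spread to the left along the horizontal line, from COA2 at 0.20 to PET117 at -1.96 in mRNA, while their footprints stay between -0.46 and 0.71.

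Factors that act on Cox1, the first subunit of cytochrome oxidase to be assembled, held the largest mRNA change. PET117 codes for an assembly factor of the inner membrane that binds the heme A synthase Cox15. Its mRNA was at 23.2 and 19.6 CPM in WT and at 6.05, 5.12 and 5.20 CPM in ΔES7S, from counts of 1110 and 1217 against 205, 81 and 90. Its footprints were at 32.5, 27.7 and 23.5 CPM in WT and at 37.1, 37.2 and 37.0 CPM in ΔES7S. The groups overlapped in neither assay, and they lay in opposite order. The log2 fold change was -1.96 ± 0.21 (SE) in mRNA, with an adjusted p of 0.0355 by edgeR, and 0.42 ± 0.13 in footprints, with an adjusted p of 0.0365. In footprints relative to mRNA it was 2.34 ± 0.22 with an adjusted p of 0.00025, which ranked 2 of 5588 genes by p. This last call was made in all 17 alternative fits, with an adjusted p of 4.35e-18 to 0.00329. The footprint call was made in 9 of 13, and the mRNA call in 8 of 12, as were those of OXA1, SDH7, COX23, COX17 and COX14.

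COX14 (YML129C), which binds newly made Cox1 and keeps its translation in check, had mRNA at 53.8 and 48.4 CPM in WT and at 27.3, 21.4 and 22.0 CPM in ΔES7S. Footprints of this gene were at 116, 138 and 102 CPM in WT and at 145, 126 and 85.1 CPM in ΔES7S. The mRNA groups stood apart, whereas the footprint groups overlapped over most of their range. The mRNA fold change was -1.12 ± 0.17 (adjusted p = 0.0355 by edgeR), that of footprints 0.01 ± 0.19, and footprints relative to mRNA rose by 1.08 ± 0.27 (adjusted p = 0.0336, called in 8 of 17 alternative fits). SHY1 (YGR112W), the yeast SURF1, which acts in Cox1 maturation, had an mRNA fold change of -0.89 ± 0.17 and rose by 0.81 ± 0.20 in footprints relative to mRNA.

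The other 6 genes of the Cox1 group did not pass in any comparison. COA3 (YJL062W-A), the partner of Cox14, had log2 fold changes of -0.59 in mRNA and -0.46 in footprints, so its footprints relative to mRNA were at 0.08. COX16 (YJL003W) had -0.44 and 0.35. MSS51 (YLR203C), the translational activator of the COX1 mRNA, had -0.22 and 0.05. PET100 (YDR079W), COA1 (YIL157C) and COA2 (YPL189C-A) also act in cytochrome oxidase assembly. They lay between -0.12 and 0.20 in mRNA and between 0.02 and 0.48 in footprints. The group thus held genes with a large mRNA difference and genes with next to none.

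The small twin CX9C proteins of the intermembrane space, which take their name from paired cysteine motifs and include the copper carriers, were lower in mRNA in 7 of 7 cases by fold change, and 2 passed the test. COX17 (YLL009C) codes for the chaperone that hands copper to Sco1 and Cox11. The mRNA level was 38.1 and 36.1 CPM in WT and 17.0, 13.3 and 19.0 CPM in ΔES7S. Its footprints were at 119, 93.6 and 94.2 CPM in WT and at 72.5, 81.2 and 83.3 CPM in ΔES7S. All ΔES7S libraries were below all WT libraries in both assays, by more in mRNA. The log2 fold change was -1.17 ± 0.20 in mRNA (adjusted p = 0.0355 by edgeR) and -0.37 ± 0.12 in footprints (adjusted p = 0.0471, called in 6 of 13 alternative fits), and footprints relative to mRNA rose by 0.76 ± 0.22 (adjusted p = 0.0467, called in 9 of 17).

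COX23 (YHR116W), a relative of COX17, had mRNA at 27.2 and 25.03 CPM in WT and at 11.2, 9.36 and 9.87 CPM in ΔES7S. Footprints of this gene were at 20.3, 22.3 and 22.3 CPM in WT and at 14.1, 17.5 and 16.8 CPM in ΔES7S. As with COX17, the groups were apart in both assays. The fold changes were -1.36 ± 0.19 in mRNA (adjusted p = 0.0355 by edgeR) and -0.43 ± 0.14 in footprints (adjusted p = 0.0374, called in 8 of 13 alternative fits), and 0.89 ± 0.20 in footprints relative to mRNA (adjusted p = 0.027, called in 11 of 17). COA6 (YMR244C-A), PET191 (YJR034W) and COA4 (YLR218C) rose in footprints relative to mRNA by 1.04 ± 0.25, 0.79 ± 0.22 and 1.06 ± 0.24. Their mRNA fold changes of -1.08, -0.84 and -0.79 did not pass, nor did those of footprints, which were 0.00, 0.00 and 0.31. CMC1 (YKL137W) and COX19 (YLL018C-A) were near 0 in all comparisons, with -0.26 and -0.16 in mRNA and 0.11 and -0.08 in footprints relative to mRNA. COX19 was the single assembly factor with a value below 0 in that last comparison, with an SE of 0.36.

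Among the membrane copper proteins SCO2 and SCO1 rose in footprints, SCO2 by more than any other of the 38. SCO1 (YBR037C) takes copper from Cox17 to the copper site of Cox2, and SCO2 (YBR024W) is its paralog. SCO2 footprints were at 56.1, 55.4 and 52.3 CPM in WT and at 80.5, 89.1 and 98.1 CPM in ΔES7S. Its mRNA was at 31.0 and 31.2 CPM in WT and at 28.5, 24.2 and 28.1 CPM in ΔES7S. Footprint groups were thus apart and higher, while mRNA lay slightly lower in ΔES7S. The footprint fold change was 0.71 ± 0.11 (adjusted p = 0.00149 by edgeR), that of mRNA -0.21 ± 0.16, which did not pass, and that of footprints relative to mRNA 0.87 ± 0.17 (adjusted p = 0.0138, called in 14 of 17 alternative fits).

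SCO1 footprints were at 66.9, 86.6 and 64.6 CPM in WT and at 118, 115 and 103 CPM in ΔES7S. The mRNA level was 81.7 and 75.4 CPM in WT and 69.2, 73.1 and 86.1 CPM in ΔES7S, and these groups overlapped. The footprint fold change was 0.62 ± 0.13 (adjusted p = 0.00694 by edgeR) and that of mRNA -0.05 ± 0.15, and footprints relative to mRNA, at 0.62 ± 0.21, did not pass (adjusted p = 0.078). The footprint calls of SCO1 and SCO2 were made in all 13 alternative fits. The 2 genes are paralogs, and how reads that fit both were counted is not given in the sources used here. COX11 (YPL132W), which brings copper to Cox1, differed from them in mRNA, at -1.05 ± 0.24 (adjusted p = 0.0566). Its footprints were at 0.01 ± 0.14, and footprints relative to mRNA rose by 1.02 ± 0.25 (adjusted p = 0.0328).

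**Figure D3:**
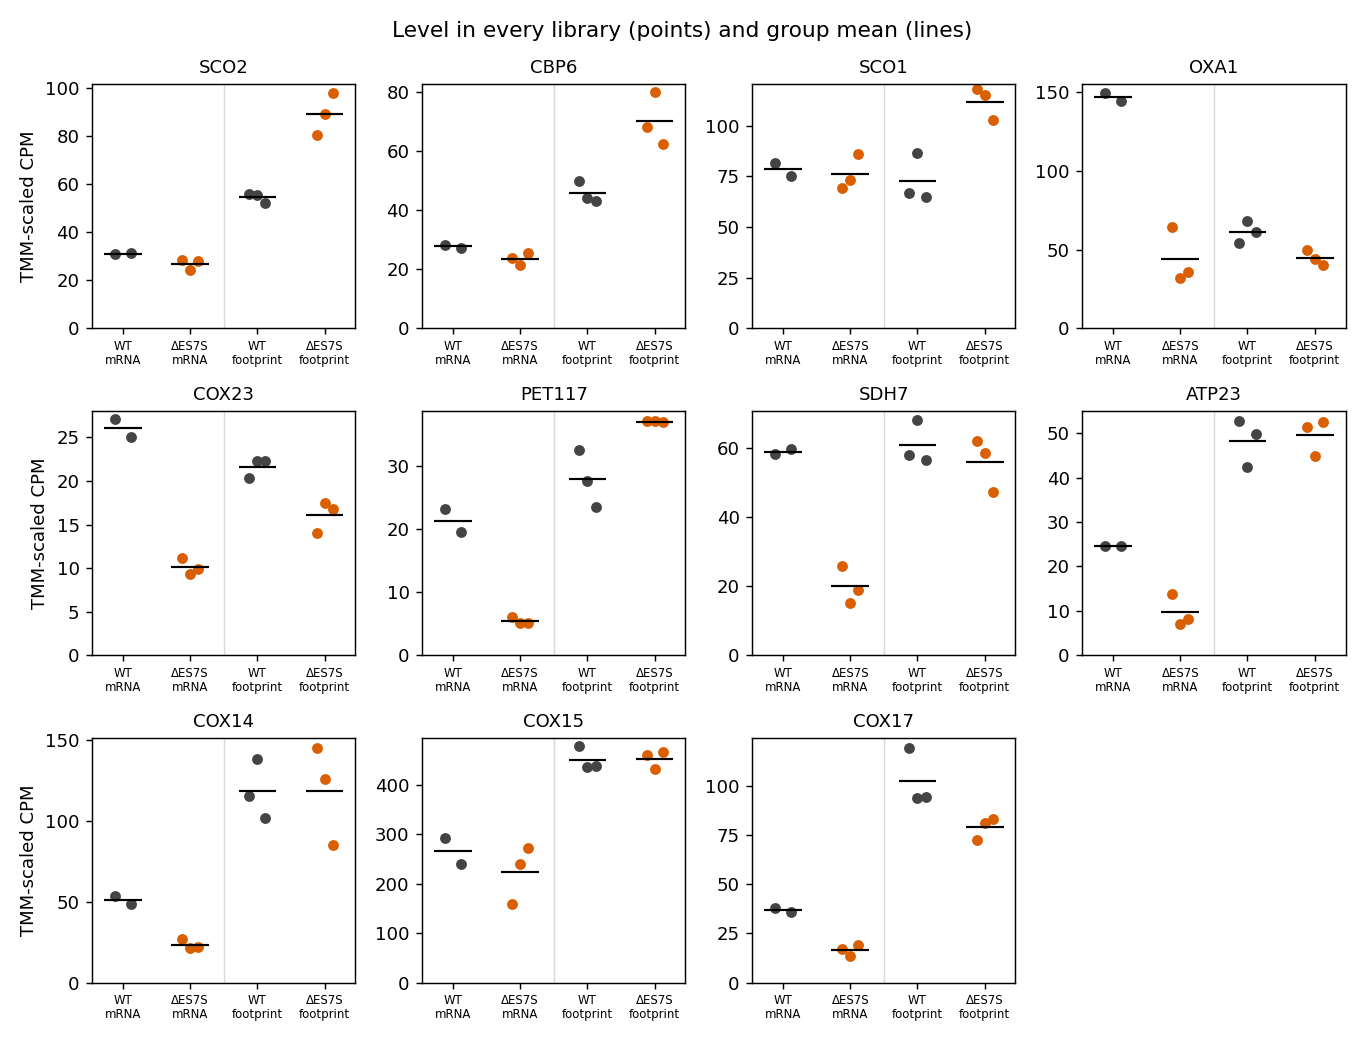
TMM-scaled CPM in every library (points; WT dark, ΔES7S orange) with the group mean (lines) for the 11 genes whose values are given by library, each on its own linear axis from 0. In PET117, OXA1, SDH7, COX23, ATP23, COX14, COX17, SCO2 and CBP6 the 3 ΔES7S mRNA points lie below both WT points; in SCO1, SCO2, CBP6 and PET117 the 3 ΔES7S footprint points lie above all WT points.

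Heme A, a cofactor that only cytochrome oxidase uses, is made by Cox10 and Cox15 in turn. COX15 (YER141W) had mRNA at 292 and 241 CPM in WT and at 159, 241 and 272 CPM in ΔES7S. Footprints of this gene were at 479, 436 and 438 CPM in WT and at 461, 432 and 468 CPM in ΔES7S. The groups overlapped in both assays, and ΔES7S replicate 1 alone was low in mRNA. COX15 passed in no comparison (mRNA -0.25 ± 0.24, footprints 0.01 ± 0.12). COX10 (YPL172C), which makes the preceding heme O, fell in mRNA (log2 fold change -1.13 ± 0.19, adjusted p = 0.0359 by edgeR). Its footprints, at -0.26 ± 0.22 from 78 to 294 counts per library, did not pass, nor did footprints relative to mRNA, at 0.82 ± 0.30 (adjusted p = 0.101).

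OXA1 (YER154W) codes for the insertase that places mitochondrially made proteins in the inner membrane. Its mRNA was at 149 and 144 CPM in WT and at 64.5, 31.8 and 35.9 CPM in ΔES7S. Its footprints were at 53.9, 67.9 and 61.4 CPM in WT and at 49.95, 44.3 and 40.1 CPM in ΔES7S. Both assays were lower throughout in ΔES7S, with ΔES7S replicate 1 the nearest to WT in each. The fold changes were -1.73 ± 0.29 in mRNA and -0.44 ± 0.13 in footprints (adjusted p = 0.0251 by edgeR, called in 9 of 13 alternative fits), and 1.25 ± 0.31 in footprints relative to mRNA (adjusted p = 0.0328, called in 9 of 17). COX18 (YGR062C), which exports the end of Cox2 across the membrane, had -0.65 ± 0.17 in mRNA and -0.34 ± 0.13 in footprints, neither of which passed. COX20 (YDR231C), the Cox2 chaperone, had 0.02 ± 0.15 and 0.24 ± 0.13.

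In complex III assembly, Cbp3 and Cbp6 bind the mitochondrial ribosome and newly made cytochrome b, Cbp4 joins them, and the ATPase Bcs1 carries the iron-sulfur protein Rip1 into place. CBP6 (YBR120C) had footprints at 49.7, 44.2 and 43.0 CPM in WT and at 68.1, 79.9 and 62.4 CPM in ΔES7S. The mRNA level was 28.3 and 27.3 CPM in WT and 23.8, 21.4 and 25.5 CPM in ΔES7S. Footprints were wholly higher and mRNA wholly lower in ΔES7S. The fold changes were 0.63 ± 0.12 in footprints (adjusted p = 0.00447 by edgeR, called in all 13 alternative fits), -0.24 ± 0.17 in mRNA, which did not pass, and 0.82 ± 0.19 in footprints relative to mRNA (adjusted p = 0.0257, called in 12 of 17). Its partner CBP3 (YPL215W) had -0.06 ± 0.10 in footprints and -0.28 ± 0.16 in mRNA, and passed in no comparison. CBP4 (YGR174C) rose in footprints relative to mRNA by 0.69 ± 0.19 (adjusted p = 0.0399). BCS1 (YDR375C) fell in mRNA (-0.86 ± 0.16, adjusted p = 0.0429), and its footprints, at -0.38 ± 0.13, did not pass (adjusted p = 0.0528).

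All 7 assembly factors of the ATP synthase had lower mRNA at an unadjusted p under 0.05, from -0.52 to -1.33 on the log2 scale, and 0 passed the adjusted threshold in edgeR. Over all genes 915 of 5611 were lower in mRNA at that unadjusted p. ATP23 (YNR020C), the protease and chaperone of subunit Atp6, had mRNA at 24.6 and 24.5 CPM in WT and at 13.7, 7.08 and 8.197 CPM in ΔES7S. Footprints of this gene were at 52.7, 42.4 and 49.8 CPM in WT and at 51.3, 44.7 and 52.5 CPM in ΔES7S. The mRNA groups were apart with an uneven ΔES7S group, and the footprint groups overlapped. The mRNA fold change was -1.33 ± 0.29 (adjusted p = 0.056 by edgeR), that of footprints 0.04 ± 0.12, and footprints relative to mRNA rose by 1.32 ± 0.28 (adjusted p = 0.0214, called in 12 of 17 alternative fits). FMC1 (YIL098C), which acts in F1 assembly, rose in footprints by 0.32 ± 0.10 (adjusted p = 0.0434) and relative to mRNA by 1.05 ± 0.17 (adjusted p = 0.0104). ATP11 (YNL315C) and ATP12 (YJL180C), chaperones of the F1 subunits beta and alpha, had mRNA fold changes of -0.74 and -0.64, and ATP12 rose in footprints relative to mRNA by 0.67 ± 0.17. ATP10 (YLR393W), ATP22 (YDR350C) and ATP25 (YMR098C), which act on the membrane part or on its mitochondrial mRNAs, did not pass in any comparison, with 0.57, 0.43 and 0.22 in footprints relative to mRNA.

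SDH7 (YDR511W) helps to mature the iron-sulfur subunit of succinate dehydrogenase. Its mRNA was at 58.2 and 59.7 CPM in WT and at 25.9, 15.2 and 19.0 CPM in ΔES7S. Its footprints were at 58.2, 68.2 and 56.5 CPM in WT and at 62.0, 58.5 and 47.2 CPM in ΔES7S. The mRNA groups were far apart and the footprint groups overlapped. The fold changes were -1.55 ± 0.23 in mRNA (adjusted p = 0.0355 by edgeR), -0.12 ± 0.13 in footprints, and 1.39 ± 0.25 in footprints relative to mRNA (adjusted p = 0.0124, called in 15 of 17 alternative fits). SDH6 (YDR379C-A), which acts at the same subunit, had 0.02 ± 0.22 in mRNA and 0.01 ± 0.25 in footprints relative to mRNA. SDH5 (YOL071W), which attaches the flavin to Sdh1, had -0.37 ± 0.16 and 0.51 ± 0.19, neither of which passed.

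The footprint calls were sensitive to single libraries as well. Against 3 falls and 5 rises with all libraries, 0 falls and 3 rises were called when either WT library 2 or 3, or ΔES7S library 2, was dropped. Dropping library 1 of either strain gave 1 fall and 4 rises, dropping ΔES7S library 3 gave 3 and 6, and with upper-quartile scaling 4 and 4. Over all genes 5.8% to 8.03% were called lower and 6.72% to 8.73% higher in the fits with 0 falls. In the others named here 10.7% to 15.2% were called lower and 10.8% to 16.8% higher. The mRNA and footprint libraries were ordered in opposite directions (every ΔES7S library below WT in mRNA and above it in footprints) for 8 of the 38 genes, against 3.53% of 5433 genes.

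The ratio of footprint to mRNA CPM, in which gene length cancels, shows where the factors stood in each strain. In WT their median log2 ratio was 0.58, against 0.01 over 5575 genes, and 17 of 38 were above the 75th percentile of genes and 6 below the 25th. In ΔES7S the median was 1.12, against 0.03 over all genes, with 24 above the 75th and 2 below the 25th percentile. The order among the factors was wide in WT, from BCS1 at -1.42 (the 8.29th percentile of genes) and OXA1 at -1.27 to CMC1 at 1.83 and COA2 at 1.89 (the 95.1st percentile). PET117 moved from 0.38 to 2.77, that is from the 65.7th to the 97.4th percentile, and OXA1 from the 10.6th to the 49.6th. Ratios of same-numbered libraries follow the number alone, which is not known to pair the libraries, and WT footprint replicate 1 has no mRNA counterpart. For PET117 this ratio was 0.26 in either WT pair and 2.62, 2.86 and 2.83 in the ΔES7S pairs, so the groups were far apart. For OXA1 it was -1.14 and -1.23 against -0.37, 0.48 and 0.16. For CMC1 it was 1.69 and 1.77 against 1.70, 2.78 and 1.61, which overlap.

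**Figure D4:**
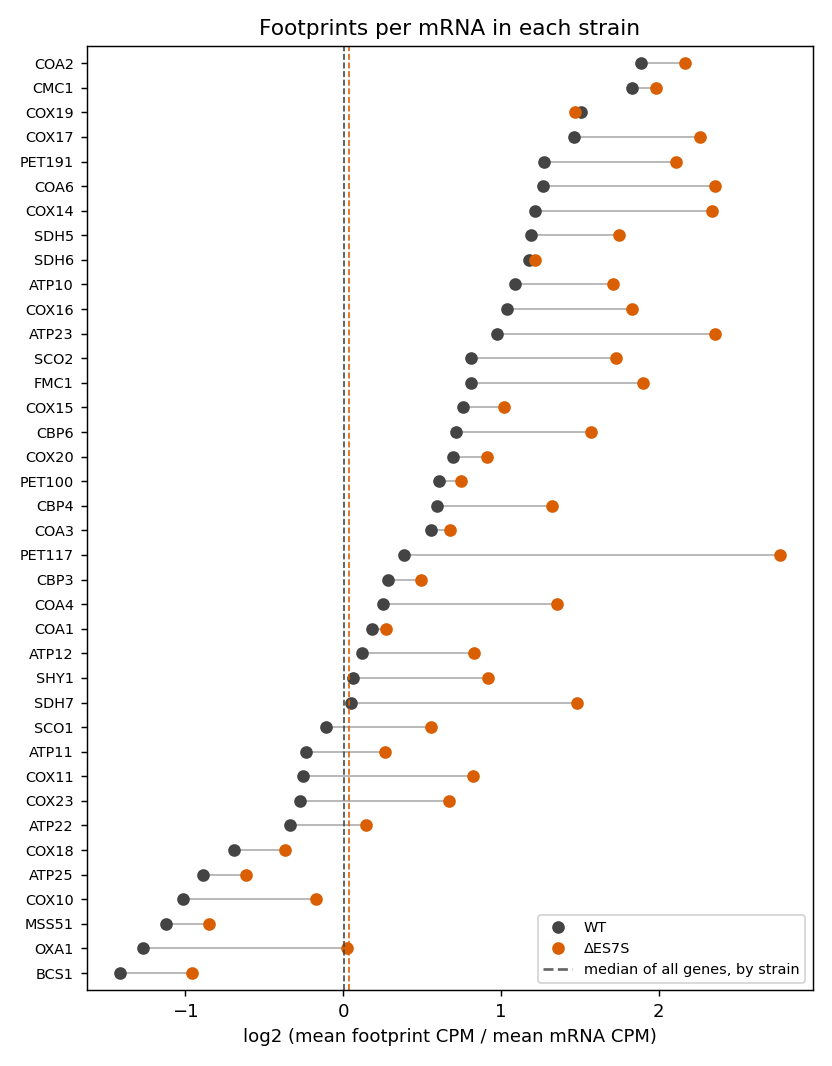
Log2 ratio of mean footprint CPM to mean mRNA CPM for each of the 38 genes in WT (dark) and ΔES7S (orange), ordered by the WT value, with dashed lines at the median of 5575 genes in each strain. The orange point lies to the right of the dark point for every gene except COX19, and the longest line is that of PET117, from 0.38 to 2.77.

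The subunits that these factors assemble had, on balance, values of the opposite sign. Of 36 nuclear genes for subunits of complexes II, III and IV and of the ATP synthase, 30 had mRNA fold changes above 0, and the median was 0.27. Of these 1 rose (ATP1, the F1 subunit alpha, by 1.09 ± 0.22, adjusted p = 0.0484 by edgeR), 0 fell and 35 did not pass. In footprints relative to mRNA 27 of 36 were below 0, with a median of -0.38, and 0 passed by edgeR (11 lower and 1 higher at an unadjusted p under 0.05). Over all genes 797 and 824 of 5588 were lower and higher at that unadjusted p. In footprints the median of the 36 was 0.00, and 1 rose, COX5B, the hypoxic form of subunit Cox5, by 0.57 ± 0.12 (adjusted p = 0.00576). By complex, the mRNA medians of assembly factors and subunits were -0.37 and 0.54 for succinate dehydrogenase and -0.40 and 0.24 for complex III. They were -0.62 and 0.13 for cytochrome oxidase and -0.64 and 0.27 for the ATP synthase. The difference between the lists was not tested. Of the 7 mitochondrially encoded subunits 6 were tested, and 0 passed in any comparison by edgeR, with an SE of 0.39 to 0.94 in footprints and 1 of them (COX1 in mRNA, named after its values were seen) at an unadjusted p under 0.05.

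**Figure D5:**
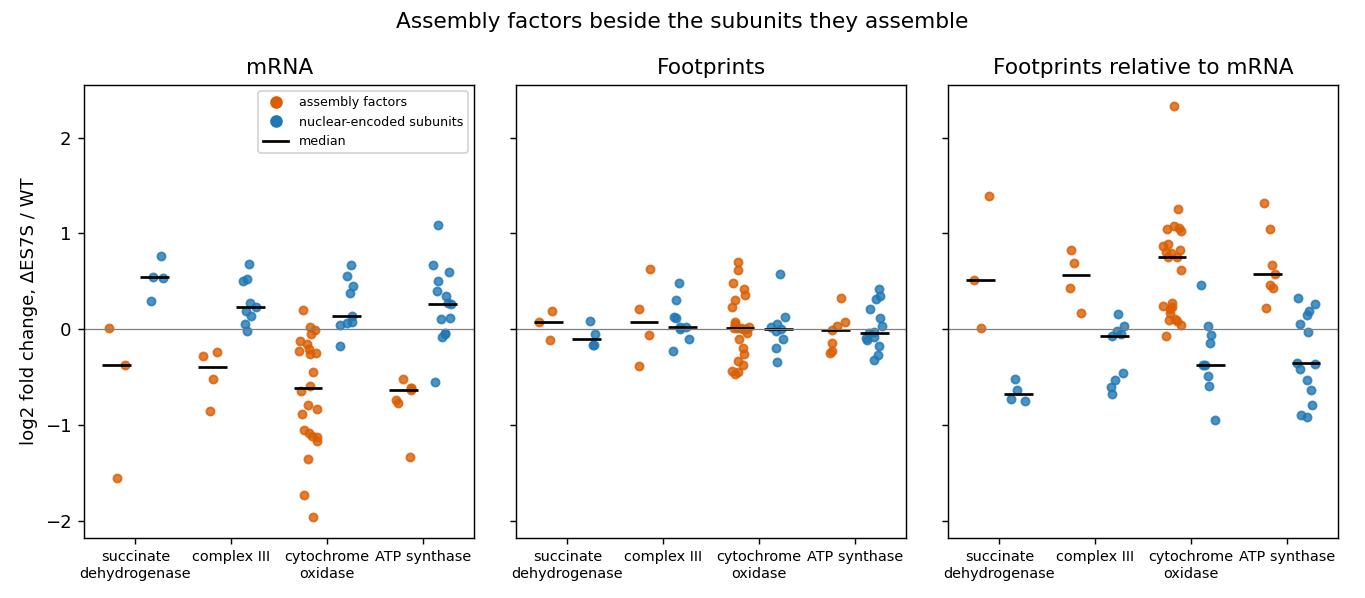
Log2 fold change (ΔES7S over WT) of assembly factors (orange) and of nuclear-encoded subunits (blue), by complex, in mRNA, footprints and footprints relative to mRNA; each point is a gene and each black line the median of its list. In mRNA the medians of assembly factors lie between -0.64 and -0.37 and those of subunits between 0.13 and 0.54, while in footprints all 8 medians lie between -0.10 and 0.07.

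Other genes of the pathway can be set beside the shares of all genes called, 1.57% lower and 1.19% higher in mRNA. In footprints these shares were 12.6% and 14.2%, and in footprints relative to mRNA 4.33% and 4.63%. Of 11 nuclear activators of mitochondrial translation, PET494, which acts on the COX3 mRNA, fell in mRNA (-0.97 ± 0.18, adjusted p = 0.0442 by edgeR). It rose in footprints relative to mRNA by 0.98 ± 0.20 (adjusted p = 0.0152), as did AEP1, by 0.78 ± 0.22 (adjusted p = 0.0481), and CBP1 fell in footprints (-0.47 ± 0.14). PET494 footprints were at 0.04 ± 0.12. AEP1 had -0.70 ± 0.20 in mRNA and 0.12 ± 0.13 in footprints, neither of which passed. The other members of that list did not pass. Of the 11, 18.2% were called higher in footprints relative to mRNA, 9.09% lower in mRNA and 9.09% lower in footprints. Of the 3 genes of the disulfide relay that imports the twin CX9C proteins (MIA40, ERV1 and HOT13), 0 passed in any comparison, and 1 was at an unadjusted p under 0.05 (HOT13 in footprints, -0.42 ± 0.16, named after its values were seen). Of 12 genes for inner membrane ribosome receptors, proteases and prohibitins, the receptor gene MBA1 rose in footprints (0.45 ± 0.11) and MDM38 and YLH47 fell (-0.46 ± 0.11 and -0.69 ± 0.10). Thus 16.7% of the 12 were called lower and 8.33% higher in footprints, near the shares of all genes. In that list 0 passed in mRNA (7 lower and 1 higher at an unadjusted p under 0.05) and 0 in footprints relative to mRNA (0 at an unadjusted p under 0.05).

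Among 6 regulators of respiratory genes, HAP4, the glucose-repressed activating subunit of the Hap complex, fell in footprints (-0.80 ± 0.11, adjusted p = 0.0012 by edgeR) and in footprints relative to mRNA (-1.13 ± 0.20, adjusted p = 0.0124 by edgeR). HAP5, a DNA-binding subunit of the same complex, rose in footprints relative to mRNA by 0.70 ± 0.18 (adjusted p = 0.0341). Its mRNA was at -0.87 ± 0.20 and its footprints at -0.13 ± 0.10, neither of which passed. PUF3 codes for an RNA-binding protein whose known targets include the COX17 mRNA and many other mRNAs for mitochondrial proteins. It fell in footprints (-0.39 ± 0.10, adjusted p = 0.0199) and in footprints relative to mRNA (-0.71 ± 0.19, adjusted p = 0.0395), while its mRNA, at 0.27 ± 0.16, did not pass. Of the remaining 3 regulators, 1 rose in footprints (HAP3, 0.40 ± 0.10, named after its values were seen), and 0 of the 6 passed in mRNA by edgeR (1 at an unadjusted p under 0.05). In footprints 33.3% of the 6 were called lower and 16.7% higher, against 12.6% and 14.2% of all genes. Relative to mRNA the shares were again 33.3% and 16.7%, against 4.33% and 4.63%.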

How the data were processed

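Footprint and mRNA fragments of 24 to 28 nt were selected and sequenced, per the labels' protocols. FastQC 0.11.7 and Bowtie 1.2.3 are named in the submitters' processing notes; for the build, annotation, counting tool, strand and multi-mapping rules the entry is "not given in the sources used here". Each deposited file holds whole-number counts by gene from a single library, not normalised by the authors, and genes it does not list were set to 0. Symbols came from RefSeq (assembly R64), which matched 5752 of 5756 genes by systematic name. No gene length or sequence was used, so a planned comparison of levels per length was not made.

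Counts were fitted in R 4.3.3 with edgeR 4.0.16 (filterByExpr, TMM, estimateDisp, glmQLFit with robust=TRUE, glmQLFTest), over footprints (6 libraries), mRNA (5) or all 11 for footprints relative to mRNA, with Benjamini-Hochberg adjustment over all genes tested. The SE is the fold change divided by the square root of F. The procedure was tested on simulated data with the same spread for every gene and library. That test does not cover uneven spread between libraries. No libraries looked like duplicates (chi-square per degree of freedom 27.5 to 241 within groups). Alternatives were limma 3.58.1 (voom), DESeq2 1.42.0, other scalings, no filter, a replicate block and leaving out each library. Values by library were given for the 5 largest fold changes per comparison among members called in any, for COX17, and for the most abundant member of a role without such a gene. Members, lists and rules were chosen with earlier results of these data known. Counting error is small at these depths and does not cover PCR copies.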

Additional observations from a re-analysis of the deposited data

Results flagged for a closer look

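For 8 assembly factors every ΔES7S library lay below every WT library in mRNA and above every WT library in footprints. Over all genes this order held for 3.53% of 5433. The 8 were picked by this order in the same libraries that the interaction test uses. A positive value therefore follows from the choice, and a pass in that test is favoured by it and is not independent evidence. The log2 fold change of footprints relative to mRNA was 2.34 for PET117, 1.06 for COA4, 1.05 for FMC1, 0.87 for SCO2, 0.82 for CBP6 and 0.69 for CBP4, and these 6 passed the interaction test by edgeR, with adjusted p from 0.00025 to 0.0399. It was 0.75 for COX16 (adjusted p = 0.0628) and 0.51 for SDH5 (adjusted p = 0.103), which did not pass.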

How the results depend on the processing

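The count of members lower in mRNA was 9 in the reported fit and 20 with DESeq2, 16 with limma-voom, 21 with the replicate block and 22 in a joint fit over all libraries; leaving out 1 library it ran from 0 to 23. Over all genes the mRNA calls lower were 88, against 510, 188, 1188 and 740 in those 4 fits, and DESeq2 called 428 lower and 475 higher in footprints relative to mRNA, against 242 and 259. In footprints 1 fall and 3 rises were called in the joint fit, against 498 and 592 over all genes. Leaving out 1 library gave 0 to 3 falls and 3 to 6 rises. Rises in footprints relative to mRNA ran from 3 to 21 when 1 library other than a WT mRNA library was left out. Leaving out ΔES7S mRNA replicate 1 raised the members called lower in mRNA from 9 to 23 and all genes called lower from 88 to 1364. The cause of these moves was not tested. When an mRNA library was left out of WT, the single library left was assumed to vary like the other groups. Medians of the 38 genes ran from -0.68 to -0.54 in mRNA, from -0.02 to 0.04 in footprints and from 0.59 to 0.75 relative to mRNA when 1 library was left out. No called fold change of a gene given by library changed sign in these fits. Whether replicate numbers pair the libraries is not known, and deviations from group means of 2 or 3 libraries cannot settle it. Same-numbered WT and ΔES7S libraries correlated in those deviations with r = 0.01, 0.11 and 0.09 in footprints and -0.14 and -0.57 in mRNA. Same-numbered footprint and mRNA libraries of a strain gave 0.18 and 0.01 for WT replicates 2 and 3. For ΔES7S replicates 1 to 3 they gave 0.05, -0.03 and 0.36, and not every library matched its own number best (in this comparison WT replicates 2 and 3 and ΔES7S replicate 3 did). With the replicate block 3 members fell and 4 rose in footprints, and 17 rose relative to mRNA. Only 2 WT mRNA libraries limit every mRNA call.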
